A study of Mus musculus with 4 samples.

Results

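The genes described here are 10 genes of the NF-kappaB response: the A20 complex (Tnfaip3, Tnip1), the cellular inhibitors of apoptosis (Birc2, Birc3), the adaptors Traf1 and Traf2, and the target genes Icam1, Vcam1, Sod2 and Ier3. They were chosen by name, with earlier results of these data known, and the rule uses no measured value. Each of the 10 had 1 probe that carries its symbol alone, out of 22180 genes measured. The study hybridised 4 Affymetrix arrays with RNA of B16-OVA cells, which are mouse melanoma cells that carry ovalbumin as a model antigen. A group of 2 arrays came from mock transfected cells and a group of 2 from cells transfected with AT90ES, which the treatment text links to a double-stranded DNA, a 90mer, given for 6 hours with the cationic lipid Lipofectamine 2000. All 4 arrays carry the same cell line and the same treatment text, so the content of the mock transfection is unknown here, and an effect of the DNA cannot be told apart from one of the lipid or the procedure. The labels do not say whether replicates were separate cultures, so the p-values cover no more than the spread of these arrays, which may be technical.

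NF-kappaB is held in the cytoplasm by I-kappaB proteins. The IKK kinases mark these inhibitors for destruction, and the freed dimers enter the nucleus and switch on inflammatory, survival and feedback genes. Traf2 and the cIAP proteins, which Birc2 and Birc3 encode, build ubiquitin chains at the TNF receptor that recruit IKK, while A20, the product of Tnfaip3, edits such chains with its partner Tnip1 and ends the signal. Cytosolic DNA reaches NF-kappaB through cGAS, STING and the kinase TBK1, which also activate interferon regulatory factors.

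None of the 10 genes passed the test between AT90ES and mock cells. The largest measured difference was that of Ier3, 0.95 ± 0.23 on the log2 scale (SE, limma) or 1.93-fold, and the next were Birc2 at 0.57, Birc3 at -0.48 and Tnfaip3 at 0.46. The other 6 lay between -0.08 and 0.25. Limma called 0 of the 10 higher and 0 lower at an adjusted p under 0.05, a threshold that 0.415% of the 22180 genes passed, all higher. At an unadjusted p under 0.05 the genes numbered 3 higher (Tnfaip3, Birc2, Ier3) and 1 lower (Birc3), and 9.09% of all genes passed that threshold, 4.5% higher and 4.59% lower. With array replicates left out in turn, those 4 genes became Birc3 and Ier3 without mock replicate 1, Birc3 and Ier3 without AT90ES replicate 2, and Ier3 without AT90ES replicate 1, and stayed the same 4 without mock replicate 2. Birc3 and Ier3 alone were left with every probe tested separately, and also after centring on the reference genes.

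The groups did not overlap for 5 of the 10 genes, with 4 higher and 1 lower in AT90ES cells. Of all genes 39.8% did not overlap, so that the count over both directions is near that of all genes. By direction 17.7% of all genes were higher and 22.1% lower. The 10 genes thus held more higher and fewer lower than those shares, a split in few genes that was not tested. For 3 genes, Tnfaip3, Birc3 and Ier3, the difference between the group means was larger than the gap between the arrays of each group. The share of all genes with such a difference was not worked out, so this count does not set the 10 genes apart. The median log2 fold change of the 10 was 0.08, against -0.02 for all genes. The smallest two-sided p of an exact permutation test of 2 against 2 arrays is 0.333, so no such test can pass.

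**Figure D1:**
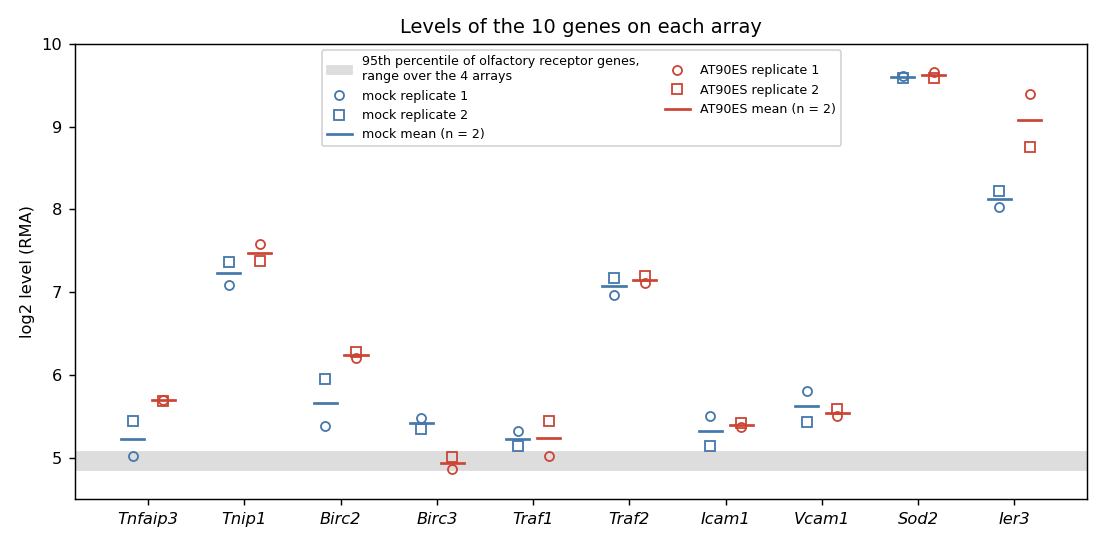
Log2 level (RMA) of each gene on each array, with mock arrays in blue, AT90ES arrays in red, circles for replicate 1, squares for replicate 2, bars for group means (n = 2) and a grey band for the 95th percentile of the olfactory receptor genes over the 4 arrays (4.85 to 5.07). The red points of Ier3 lie clear of the blue, those of Birc3 lie below the blue and in or near the grey band, and those of Sod2 lie on the blue; levels of different genes come from different probes and are not comparable.

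Tnfaip3 encodes A20, the ubiquitin-editing enzyme that ends NF-kappaB signalling. Its log2 level was 5.01 and 5.45 in the mock replicates, against 5.70 and 5.68 in the AT90ES replicates. Both AT90ES arrays stood above both mock arrays, and the mock arrays lay 0.43 apart while the AT90ES arrays lay 0.02 apart. The log2 fold change was 0.46 ± 0.17 (SE, limma, adjusted p = 0.513), and it was 0.24 without mock replicate 1 and 0.68 without mock replicate 2. Of the 10 genes, Tnfaip3 was the only gene with an array under the 95th percentile of the 1105 olfactory receptor genes. That array was mock replicate 1, at 5.01 against 5.07. The olfactory receptor genes were taken as not expressed and serve here as background. Whether any of them is expressed in these cells was not tested.

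Tnip1 encodes the ubiquitin-binding partner that brings A20 to its targets. On the log2 scale it read 7.08 and 7.37 in the mock replicates, against 7.58 and 7.37 in the AT90ES replicates. The groups did not overlap, but mock replicate 2 and AT90ES replicate 2 were within 0.0040 of each other. The log2 fold change of 0.25 ± 0.15 (adjusted p = 0.695) was smaller than the gap of 0.29 between the mock arrays. It was 0.11 without mock replicate 1, 0.39 without mock replicate 2 and 0.15 without AT90ES replicate 1.

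Promoter sequence is shown because most of these genes were taken as textbook NF-kappaB targets. In the RefSeq promoter table (mouse build GRCm38.p6), 9 of the 10 genes had an entry, Vcam1 being the exception, and the 250 bases before each annotated start were searched on both strands. The motif was the NF-kappaB decamer consensus, a run of G, a purine, any base, A or T, pyrimidines and a closing pair of C. It was present in 4 of the 9 genes (Tnfaip3, Tnip1, Sod2 and Ier3) and in 4.46% of the 27025 genes in the table (3.9% of the 32851 starts). Tnfaip3 and Birc2 have more than 1 start, and the Tnfaip3 matches lie before 1 of its starts. The interferon response core GAAANNGAA, searched in the same way, was in 0 of the 9 and in 8.18% of genes. The stretches around the decamer matches of the 4 genes are shown with those of Nfkbia and Nfkbie, I-kappaB genes that passed the test and are described further on, so that motif and response can be read side by side. Each is printed on the strand of the gene, 5′ to 3′, with the letters of the match in capitals, on either strand, and overlapping matches merged.
Tnfaip3, chr10:19015511-19015550 (minus strand): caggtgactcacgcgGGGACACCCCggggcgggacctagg
Tnfaip3, chr10:19015411-19015437 (minus strand): actggaatttccatcGGAAATCCCCct
Tnip1, chr11:54962972-54963013 (minus strand): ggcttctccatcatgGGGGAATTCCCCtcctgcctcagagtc
Sod2, chr17:13007741-13007780 (plus strand): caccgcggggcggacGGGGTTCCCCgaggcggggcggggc
Ier3, chr17:35821606-35821645 (plus strand): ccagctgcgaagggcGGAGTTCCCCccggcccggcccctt
Nfkbia, chr12:55492652-55492691 (minus strand): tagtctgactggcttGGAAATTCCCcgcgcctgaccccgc
Nfkbie, chr17:45555579-45555618 (plus strand): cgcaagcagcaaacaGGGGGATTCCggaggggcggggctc

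The 4 genes with a match had log2 fold changes of 0.46 (Tnfaip3), 0.25 (Tnip1), 0.03 (Sod2) and 0.95 (Ier3). The 5 genes without a match in the table ranged from -0.48 (Birc3) to 0.57 (Birc2). Neither set held a gene that passed the test. The match is a description of the letters in this window and does not show that the factor binds there. Variants of the consensus and sequence outside the window were not searched, so a gene without a match may still hold a site.

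Birc2 and Birc3 encode cIAP1 and cIAP2, ubiquitin ligases that promote survival signalling from the TNF receptor and keep the alternative NF-kappaB pathway off. They are close relatives and neighbours in the RefSeq gene table, with 0 other genes starting between them. The Birc2 level was 5.38 and 5.95 in the mock replicates, against 6.20 and 6.27 in the AT90ES replicates. Both AT90ES arrays were higher than both mock arrays, and the mock arrays lay 0.58 apart, about the size of the log2 fold change of 0.57 ± 0.21 (adjusted p = 0.498). Without mock replicate 1 the change was 0.28 and without mock replicate 2 it was 0.86.

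Birc3 stood the other way. Its log2 level was 5.48 and 5.35 in the mock replicates, against 4.86 and 5.004 in the AT90ES replicates, so that both AT90ES arrays were below both mock arrays. The log2 fold change was -0.48 ± 0.13 (adjusted p = 0.375), a 1.40-fold lower level, and it ranged from -0.56 to -0.41 when each array was left out in turn. On AT90ES replicate 1 the level was 0.01 above the 95th percentile of the olfactory receptor genes of that array. AT90ES replicate 2 was also close to it, at 5.004 against 4.92. A lower level on these arrays could not be told from background.

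The gap between the paired genes changed in the same direction on both AT90ES arrays. The log2 level of the Birc2 probe minus that of the Birc3 probe, which shows unequal change and not the relative amounts of the 2 RNAs, was -0.10 and 0.60 in the mock replicates, against 1.34 and 1.27 in the AT90ES replicates. The mean gap was 1.05 larger in AT90ES cells, the nearest arrays of the groups lay 0.67 apart, and the mock arrays differed by more than that. This pair was singled out after its values were seen, and the smallest two-sided exact permutation p for it is 0.333. Whether probes of these relatives share signal was not tested.

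Traf1 and Traf2 encode adaptors of TNF family receptors. Traf2 is made at steady levels in most cells and carries the cIAP proteins to the receptor, and Traf1 is an NF-kappaB-induced partner that binds Traf2. The Traf1 level was 5.32 and 5.14 in the mock replicates, against 5.02 and 5.44 in the AT90ES replicates. The AT90ES arrays lay on either side of the mock arrays, and the log2 fold change was 0.01 ± 0.18 (adjusted p = 0.997), at levels only 0.17 to 0.52 above the olfactory receptor percentile of the array. The Traf2 level was 6.97 and 7.17 in the mock replicates, against 7.11 and 7.20 in the AT90ES replicates. These groups overlapped, with a log2 fold change of 0.08 ± 0.13 (adjusted p = 0.898).

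Icam1 and Vcam1 encode adhesion molecules that bind leukocyte integrins and are classic NF-kappaB targets in endothelium. The Icam1 level was 5.51 and 5.14 in the mock replicates, against 5.37 and 5.42 in the AT90ES replicates, so that both AT90ES values lay between the mock values. The Vcam1 level was 5.81 and 5.43 in the mock replicates, against 5.50 and 5.59 in the AT90ES replicates, and these too lay between the mock values. The log2 fold changes were 0.07 ± 0.16 for Icam1 (adjusted p = 0.933) and -0.08 ± 0.16 for Vcam1 (adjusted p = 0.927). Over the 4 arrays the Icam1 level was 0.21 to 0.52, and the Vcam1 level 0.49 to 0.74, above the olfactory receptor percentile of the array, a small margin in which a change may be understated. In bulk RNA a change in few cells and a small change in all cells cannot be told apart.

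Sod2 encodes the mitochondrial superoxide dismutase, an antioxidant enzyme that NF-kappaB induces in many cells. The 4 arrays were close, at 9.62 and 9.58 in the mock replicates, against 9.66 and 9.59 in the AT90ES replicates. The groups overlapped, and all 4 arrays lay at least 4.54 above the olfactory receptor percentile, so that low signal does not limit this value. The log2 fold change was 0.03 ± 0.12 (adjusted p = 0.97), with a 95% interval of 0.835 to 1.24-fold.

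Ier3 encodes a stress-inducible regulator of survival and of NF-kappaB and ERK signalling. Its array values were 8.03 and 8.22 in the mock replicates, against 9.40 and 8.75 in the AT90ES replicates. Both AT90ES arrays stood above both mock arrays, by 0.53 at the nearest, and the AT90ES arrays lay 0.65 apart. The log2 fold change of 0.95 ± 0.23 ranked 126th of 22180 genes by size of rise and had an adjusted p = 0.339. It was 0.63 without AT90ES replicate 1 and 1.27 without AT90ES replicate 2. Ier3 was the only gene of the 10 to pass under any alternative tried, with an intensity trend in the spread between arrays (adjusted p = 0.00445, range over the alternatives 0.00445 to 0.698), and 2.67% of all genes passed under that setting.

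**Figure D2:**
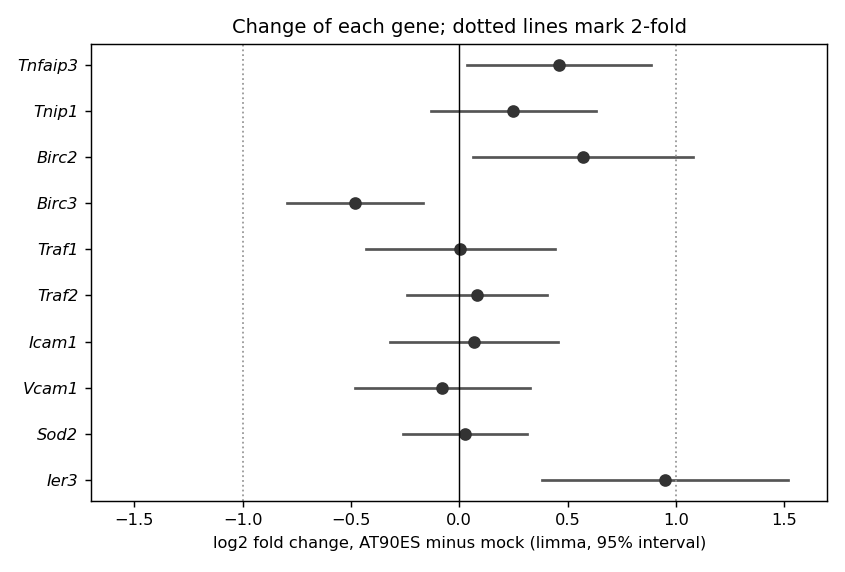
Log2 fold change of each gene (AT90ES minus mock, 2 arrays per group) with its 95% interval from limma, not adjusted for the number of genes, and dotted lines at 2-fold. The intervals of 8 of the 10 genes lie inside 2-fold in both directions, a share not worked out over all genes. Those of Birc2 and Ier3 reach beyond 2-fold higher.

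The intervals describe the measured change, as far as 2 arrays per group give it. For the dim probes of Tnfaip3, Birc2, Birc3, Traf1, Icam1 and Vcam1, whose lowest margin over the olfactory receptor percentile was at most 0.49, the change in RNA may be larger than the measured one and is not bounded by them. For 8 of the 10 genes the 95% interval lay inside a 2-fold change in each direction. The share of all genes with such an interval was not worked out, so this count does not set the 10 genes apart. The Birc2 interval reached 2.12-fold higher and the Ier3 interval 2.86-fold higher. Those of Tnfaip3 and Tnip1 reached 1.85 and 1.55-fold higher, and that of Birc3 reached 1.74-fold lower. A miss of the threshold does not show that a level was the same, and for Traf1 the interval ran from 1.35-fold lower to 1.36-fold higher.

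Other genes of the pathway were taken from 4 lists, written from knowledge of the pathway with earlier results of these data known. The list of IKK kinases, NF-kappaB subunits and I-kappaB proteins held 19 genes. Chuk and Nfkb1 had no probe that carries their symbol alone and were not measured. Of the 17 measured genes 3 rose, 0 fell and 14 did not pass, with a median log2 fold change of 0.21 (all genes: -0.02). The 3 were Nfkbie, an I-kappaB protein, at 1.97 ± 0.12 (SE, adjusted p = 0.00379), Nfkb2, which encodes the precursor of the p52 subunit, at 1.37 ± 0.12, and Nfkbia, the main I-kappaB protein, at 1.35 ± 0.13. The Nfkbia level was 7.54 and 7.59 in the mock replicates, against 8.81 and 9.02 in the AT90ES replicates, clear of each other. Nfkbia and Nfkb2 lost their calls in each of the 4 fits without an array, while Nfkbie kept its call in all 4. Beside them Relb stood at 0.74 (adjusted p = 0.128), Rel at 0.51 (adjusted p = 0.303) and Rela at 0.51 (adjusted p = 0.375), named after their values were seen. At an unadjusted p under 0.05 from limma, 6 of the 17 were higher and 0 lower (all genes: 4.5% higher and 4.59% lower).

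Of 17 measured genes of the TNF receptor complex and its ubiquitin machinery, limma called 0 higher and 0 lower, also at an unadjusted p under 0.05. Their log2 fold changes lay between -0.04 and 0.26, with a median of 0.11. Ripk1, Spata2 and Traf3 of this list had no probe that carries their symbol alone and were not measured. Tnfrsf1a, the TNF receptor that Traf2 and the cIAP proteins serve, stood at 0.26 ± 0.12 (adjusted p = 0.588), and Tax1bp1, an adaptor of A20, at 0.16 ± 0.12 (adjusted p = 0.735). Among 12 family relatives of the genes described here limma also called 0 higher and 0 lower, with 0 of either at an unadjusted p under 0.05 and a median of -0.02. Sod1, the cytosolic superoxide dismutase, stood at -0.02 and Traf7 at -0.18.

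Of 30 other inducible NF-kappaB targets, 20 were above the olfactory receptor percentile by mean level, and in the rest a change may be understated. Of the 30, 3 rose, 0 fell and 27 did not pass, with a median of 0.16. The 3 were the chemokine genes Ccl5 at 6.32 ± 0.12 and Cxcl10 at 5.11 ± 0.12, and Csf1, the macrophage growth factor gene, at 2.32 ± 0.13, which kept their calls in all 4 fits without an array. Interferon regulatory factors also act on some of these genes. At an unadjusted p under 0.05 from limma, 8 of the 30 targets were higher and 0 lower (all genes: 4.5% higher and 4.59% lower). Of the 6 listed pathway genes that rose, 5 were in the promoter table, and 5 of these 5 (Nfkb2, Nfkbia, Nfkbie, Cxcl10 and Csf1) held the decamer in at least 1 window, and 2 of these 5, Nfkbia and Cxcl10, also held the interferon response core. The lists that these 5 come from held the decamer in 10 of 23 target genes and 6 of 14 genes of the IKK, NF-kappaB and I-kappaB list, counts that include the 5. The decamer was thus present before genes that passed the test and before genes such as Sod2 that stood at 0.03.

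**Figure D3:**
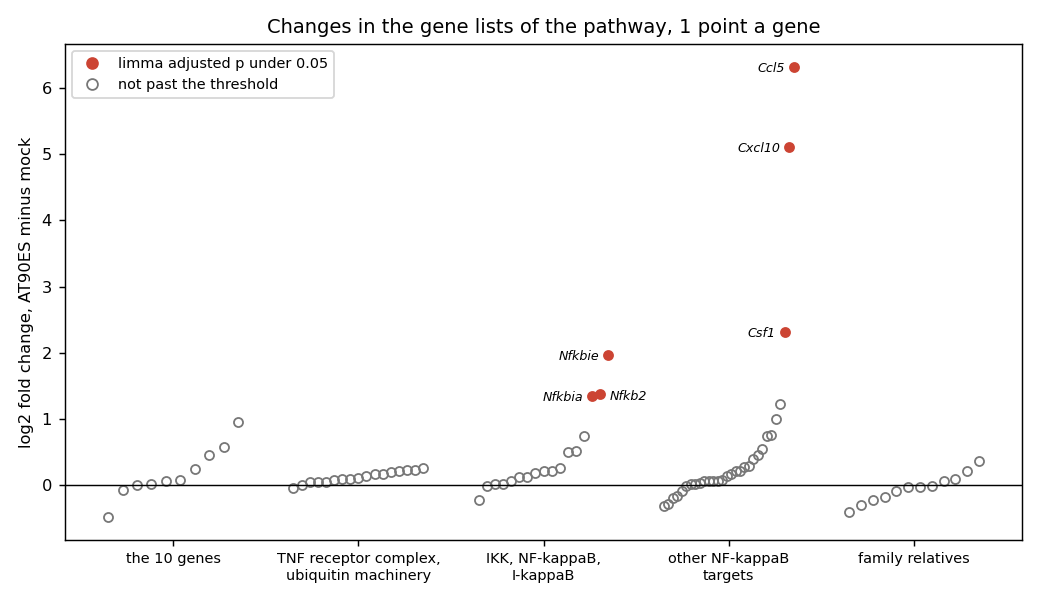
Log2 fold change (AT90ES minus mock) of each gene in 5 lists, 1 point a gene ordered by value within its list, filled red where limma's adjusted p is under 0.05 and open grey otherwise. The 6 filled points, Nfkbie, Nfkb2, Nfkbia, Ccl5, Cxcl10 and Csf1, are in 2 lists, and the 10 genes described here are open points between -0.48 and 0.95.

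The labelled cell type was checked against its markers, and 7 of 7 melanocyte markers were above the olfactory receptor percentile (mean log2 level of Dct 12.91 after mock and 12.87 after AT90ES, of Tyrp1 12.77 and 12.78). Of these, 5 of 7 had negative log2 fold changes and 0 passed, with 1 lower at an unadjusted p under 0.05: Mitf, named after its value was seen, at -0.34 (adjusted p = 0.469), with groups that did not overlap. Of markers of other cells that make Icam1 and Vcam1, 3 of 7 endothelial, 4 of 7 myeloid and 5 of 7 fibroblast markers were above it. The mean log2 level of the endothelial markers was 4.54 and 4.67 in the mock replicates, against 4.41 and 4.51 in the AT90ES replicates, with 5 of 7 negative log2 fold changes. The pair with the highest mean level over the 4 arrays, Cdh5 at 0.23 and Pecam1 at 0.17, had the only positive ones, and Kdr, named after its value was seen, stood at -0.58 (unadjusted p = 0.0501). That of the myeloid markers, led by Cd68 and Fcer1g, was 5.17 and 5.13 against 4.95 and 5.14. That of the fibroblast markers, led by Col1a2 and Col1a1, was 5.10 and 4.74 against 4.78 and 4.94. Of these 21 markers 15 had negative log2 fold changes, limma called 0 at an adjusted p under 0.05 and 0 had an unadjusted p under 0.05, and their part in the levels of the 10 genes was not tested. The median log2 level of an array was 4.83 to 4.91.

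**Figure D4:**
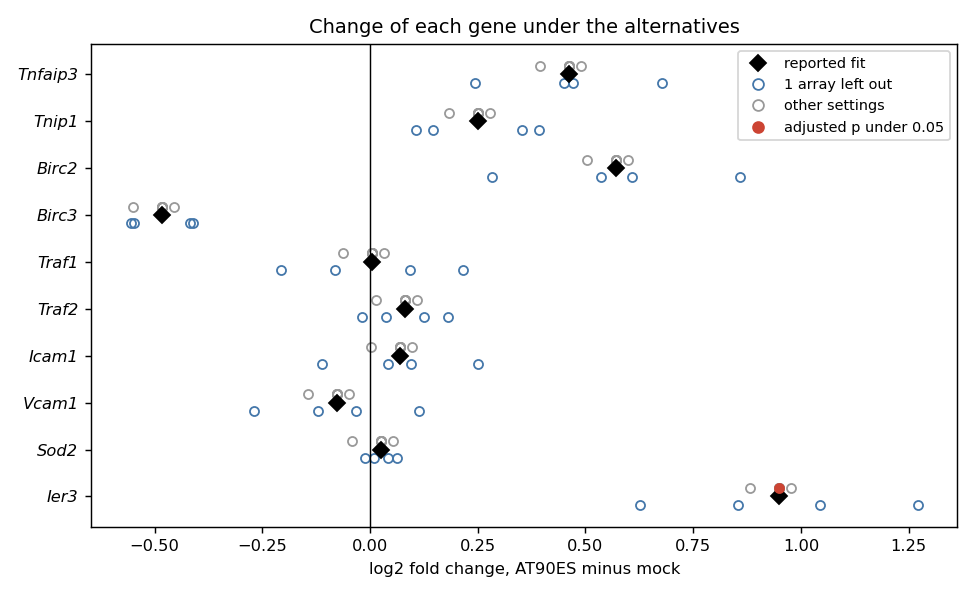
Log2 fold change of each gene (AT90ES minus mock) in the reported fit (black diamond), with each array left out in turn (blue circles) and under the other settings (grey circles), filled red where limma's adjusted p is under 0.05. Tnfaip3, Tnip1, Birc2 and Ier3 stay to the right of 0 and Birc3 to the left under all 12 settings, the other 5 genes cross 0, and 1 point, for Ier3, is red.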

How the data were processed

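The file holds log2 values deposited by the authors for 41345 probes on each array, which come from RMA according to the submitters' processing notes; its version and settings are not given in the sources used here. RMA corrects background, equalises the arrays and summarises probe sets, so changes shared by all genes are removed. Labelling started from 300 ng of RNA a sample, per the labels' protocols. The number of arrays limits the precision.

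Groups and replicate numbers came from the sample titles. Probes were named from the platform's annotation (23521 with 1 symbol, 1814 with several, 16010 with none), and the brightest probe stood for each of 22180 genes. The groups were compared with limma 3.58.1 under R 4.3.3 (lmFit and eBayes without covariate or filter), from which every adjusted p comes, two-sided and Benjamini-Hochberg adjusted over all genes at 0.05. The steps were tested on simulated data. The genes, lists and rules were chosen with earlier results of these data known: all 10 genes were described, and of each list up to 4 genes past the threshold by size, or else the 2 brightest. Deviations of same-numbered arrays had a weak negative correlation (-0.222 across genes), which does not settle whether the samples were paired. Replicate numbers were not taken to pair them, and a fit with the replicate as a block is among the alternatives. Promoter sequences came from RefSeq (GRCm38.p6).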

Additional observations from a re-analysis of the deposited data

How the results depend on the processing

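Under the 12 alternatives, the 10 genes gave 0 calls lower throughout and 0 calls higher, except 1 (Ier3) with an intensity trend. Of 120 log2 fold changes of the 10 genes 8 changed sign, all of uncalled genes (Traf1, Traf2, Icam1, Vcam1 and Sod2). Calls in the 4 pathway lists numbered 6 higher. They numbered 4 in each fit without an array, with every probe tested separately and with crossed numbers as the block, 7 with the replicate block and with arrays centred on their median, 8 with dim genes left out and 12 with an intensity trend. Over all genes 92 were higher and 0 lower (999 and 1017 at an unadjusted p under 0.05), and the numbers were 431 and 162 with an intensity trend, 160 and 6 with dim genes left out, and 127 and 1 with arrays centred on their median. The higher genes numbered 30 with every probe tested separately and 32 to 47 with each array left out, a fit that gives the single remaining array the spread of the other group. With the replicate block 85 genes were higher, and 0 of the 10 genes passed. With crossed numbers as the block, chosen after seeing the data, 59 were higher. The cause of these differences was not tested. At 2 arrays per group, 6 of the 10 genes had mock arrays further apart than the AT90ES arrays. This was not counted over all genes, so it does not show that the mock arrays vary more.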
